A study of Mus musculus with 8 samples.

Results

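Mature blood neutrophils without an interferon signature were the most numerous cells in the sorted blood of these tumor-bearing mice. The members were selected on measured RNA: barcodes of the control and irradiated blood libraries in which S100a8, S100a9, Retnlg, Csf3r and Cxcr2 together gave 5% or more of the gene UMIs (unique molecular identifiers, the counted RNA molecules), in which Ngp, Camp and Ltf together had fewer than 3 UMIs and in which Ifit1, Ifit3, Ifit3b, Rsad2 and Cmpk2 together had fewer than 3 UMIs. These genes chose the cells, so their levels are given as a description only. The rule held 9635 cells with a genotype label, of 18859 blood barcodes and 32121 barcodes in the whole series that passed the quality limits. Just inside the score limit, at 5 to 6%, were 171 barcodes of the control and 178 of the irradiated library, and just outside, at 4 to 5%, were 197 and 185. A further 210 barcodes of the control library and 175 of the irradiated library met the rule but had no clear genotype tag and were left out.

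Neutrophils are the short-lived granulocytes that leave the bone marrow loaded with granule proteins and circulate until they are cleared or enter a tissue. The granule genes Ngp, Camp and Ltf are transcribed during maturation in the marrow and are largely silent in mature blood cells, whereas Csf3r, the receptor for granulocyte colony-stimulating factor, and Cxcr2, the receptor for neutrophil-attracting chemokines such as Cxcl2, mark the mature circulating cell. Mature neutrophils carry little RNA, and they release chemokines and interleukin-1 on activation.

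Mice bore MC38 colon carcinoma, a mouse line grown on a C57BL/6J background. WT denotes Ythdf2 fl/fl mice, and cKO denotes Lyz Cre+;Ythdf2 fl/fl mice, in which Cre is active in cells that express lysozyme M, neutrophils included, so all groups carried the floxed Ythdf2 allele and only cKO mice carried Cre. Ythdf2 encodes a reader of N6-methyladenosine that promotes decay of methylated mRNA. IR groups received a single dose of 20 Gy to the tumor and were taken 3 days later, and control groups were not irradiated. Blood of several mice was pooled, both genotypes of a treatment were marked with hashtag antibodies and run in 1 library, and cells were sorted as CD45+CD11b+Ly6Chi, a gate meant for monocytes, so these neutrophils are those that the gate let through. Each group is therefore 1 pool. No test across replicates was possible, every interval below is a 95% interval for counting error only, and the irradiation comparisons cannot be told apart from a difference between 2 libraries.

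The 4 groups held 2856 WT control, 2005 cKO control, 2585 WT IR and 2189 cKO IR cells. They made up 56.0% (95% exact binomial interval 54.6 to 57.4) of passing WT control barcodes, 49.95% (48.4 to 51.5) of cKO control, 52.8% (51.3 to 54.2) of WT IR and 55.6% (54.0 to 57.2) of cKO IR. Among neutrophil barcodes alone the share was 89.8% in WT control, 78.9% in cKO control, 82.3% in WT IR and 84.0% in cKO IR. The low share in cKO control went with granule-rich neutrophils, which made up 14.8% of neutrophil barcodes there and between 0.844% and 1.54% in the other groups. Cells with the interferon signature made up 16.7% and 15.2% of neutrophil barcodes in WT IR and cKO IR, and 8.65% and 6.34% in the respective controls.

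**Figure D1:**
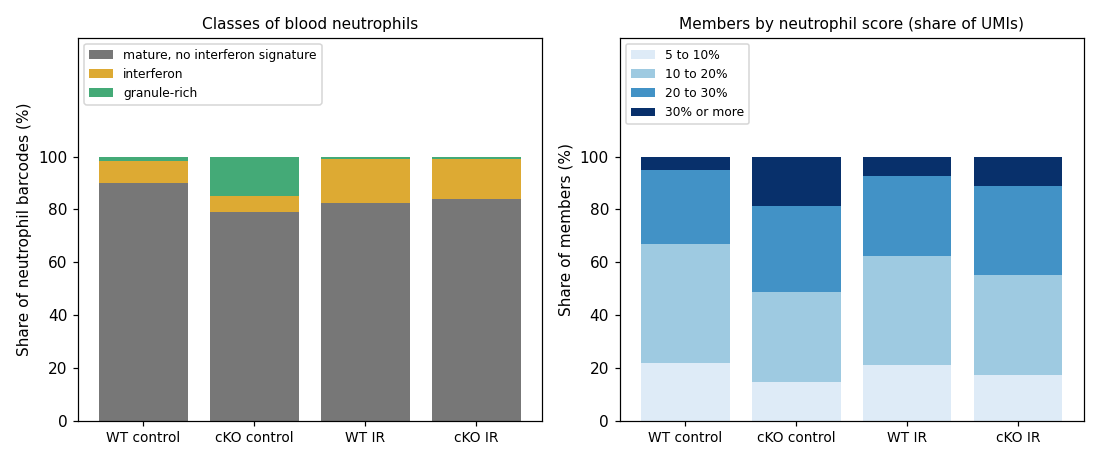
Left, share of neutrophil barcodes (%) in each class for the 4 groups. Right, share of members (%) in each tier of the neutrophil score, the share of a cell's UMIs from the 5 score genes. cKO control holds the most granule-rich cells (14.8%) and the most members with a score of 30% or more (18.7%).

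Depth was even across the groups. The median was 2511, 2539, 2581 and 2579 UMIs per cell in WT control, cKO control, WT IR and cKO IR, with 936, 928, 960 and 963 genes detected, and the summed counts ran from 5498619 UMIs in cKO control to 8036105 in WT control. The median mitochondrial share lay between 0.127% and 0.176%. Of the member barcodes 7 occurred in both blood libraries.

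The hashtag rule was not symmetric. It called 74 cells of WT control and 27 of WT IR wild-type although tag B0301 was at most 4 times tag B0302. These cells had a median of 7210.5 and 5569 UMIs, and 43.2% and 25.9% of them had a Ythdf2 UMI against 3.56% and 3.79% of the other WT cells. Leaving them out took the number of genes past the limit after irradiation in WT from 217 to 163, and the other 3 counts to 210, 351 and 66, from 210, 362 and 62. Whether these cells are doublets was not tested.

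The label was checked on Slc40a1, the only one of its 5 markers that the rule did not use. Csf3r, given as a description because it helped choose the cells, was at 2422, 2450, 2593 and 2738 CPM (UMIs of the gene per 1000000 gene UMIs of the group) in WT control, cKO control, WT IR and cKO IR, and a UMI of it was seen in 99.3% to 99.8% of cells. Slc40a1, which encodes the iron exporter ferroportin, was at 338 CPM in WT control, 383 CPM in cKO control, 412 CPM in WT IR and 516 CPM in cKO IR, against 28.9 to 51.6 CPM in blood barcodes that were not neutrophils and 118 to 171 CPM in the granule-rich cells. Slc40a1 was thus higher in the members than in either of those, in every group. The interferon-signature neutrophils were not compared here, so Slc40a1 does not bear on the part of the label that names them. It was detected in 53.6% to 66.6% of members and in 0% to 3.51% of lymphocytes of the same groups (35 to 206 cells, median depth 3050 to 3510 UMIs), the cells used here to gauge stray RNA. After each cell was thinned to 500 UMIs the shares were 15.4% to 22.02% and 0%. These lymphocytes were chosen with a neutrophil score under 1%, which bounds the stray neutrophil RNA that they can show, so they may gauge it low. Markers of other cells were low but not absent: the 6 NK cell markers summed to 112, 50.7, 28.3 and 3.501 CPM, the 6 T cell markers to 19.3 to 30.9 CPM and the 12 monocyte markers to 523 to 669 CPM. Of these, Csf1r was at 126 to 151 CPM.

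The genotype tags were checked on Lyz2, the lysozyme gene used to drive Cre, and on Ythdf2. Lyz2 (chr10:117277331-117282321, minus strand, mm10) was at 3030 CPM in WT control, 107 CPM in cKO control, 3014 CPM in WT IR and 106 CPM in cKO IR. The log2 ratio of cKO to WT was -4.82 (-4.94 to -4.70) in controls and -4.83 (-4.95 to -4.72) after irradiation, so the labels separated the cells by Lyz2. In cKO control members 24.2% of cells had a Lyz2 UMI, below the 29.8% of cKO control lymphocytes, and after each cell was thinned to 500 UMIs 5.54% against 5.26%, so that share was read as background. In cKO IR the member share was the higher one, 23.8% against 17.1% of 35 lymphocytes, and 5.66% (4.73 to 6.72) against 0% (0 to 10.003) after thinning. Lyz1, the neighbouring lysozyme gene, was at 10.002 and 10.7 CPM in cKO and at 1.74 and 1.52 CPM in WT.

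Ythdf2 (chr4:132184912-132212303, minus strand) was not lower in the cells labelled cKO. It was at 19.5 CPM in WT control and 15.6 CPM in WT IR, and at 163 and 165 CPM in the corresponding cKO groups. The log2 ratio was 3.05 (2.81 to 3.31) in controls and 3.39 (3.12 to 3.70) after irradiation. These libraries count the 3′ end of transcripts, and the position of the floxed segment was not used here, so the tags do not check the deletion. A Ythdf2 UMI was seen in 32.3% of cKO control members and 15.8% of cKO control lymphocytes (8.38% and 3.51% after thinning to 500 UMIs). In WT control it was seen in 4.59% of members and 11.7% of lymphocytes; lymphocytes may express the gene, so their share does not gauge stray RNA here. The related readers did not follow: Ythdf1 was at 16.7 to 19.9 CPM and Ythdf3 at 64.2 to 79.6 CPM, and of 9 measured readers, writers and erasers of the mark only Ythdf2 passed 1.5-fold with genotype in either treatment.

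**Figure D2:**
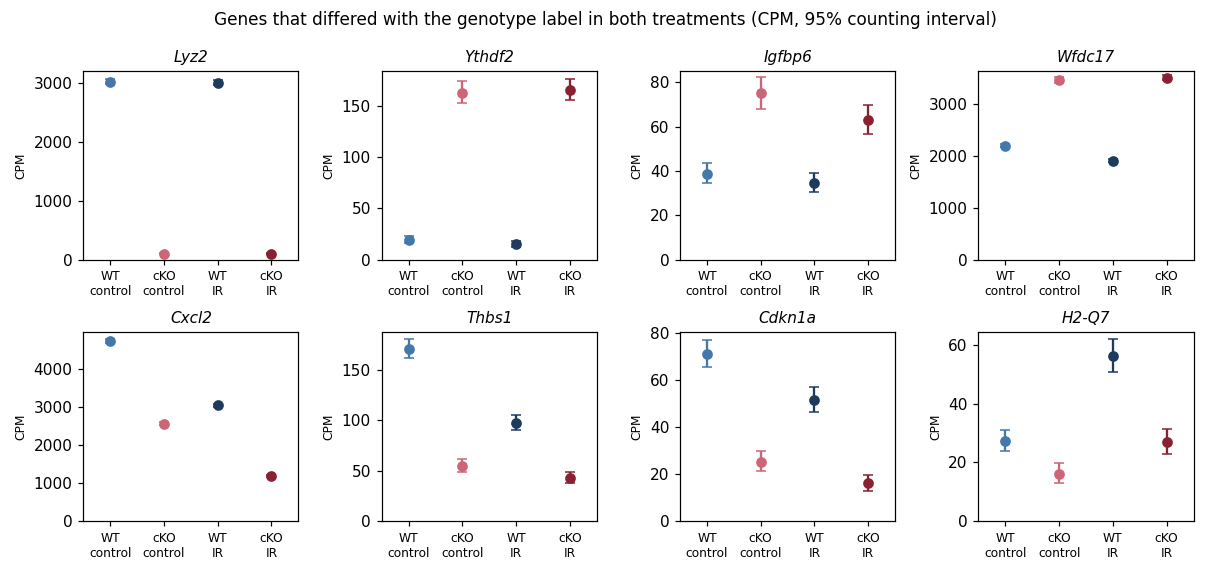
CPM of 8 genes in the 4 groups (points) with 95% counting intervals (bars); each axis starts at 0. Lyz2 falls from about 3030 to 107 CPM with the cKO label in controls and Ythdf2 rises from 19.5 to 163 CPM; the other genes differed in the same direction in both treatments.

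For each comparison a gene was measured when its 2 groups together had at least 200 UMIs, and it was called when its CPM differed by 1.5-fold or more. A call is a size and not a test. After irradiation in WT, 45 of 4822 measured genes were called higher, a share of 0.933%, and 172 lower, 3.57%. After irradiation in cKO, 105 of 4246 were higher and 105 lower, 2.47% each. In control blood, cKO exceeded WT in 149 of 4597 genes, 3.24%, and was below it in 213, 4.63%. After irradiation, cKO exceeded WT in 19 of 4519 genes, 0.42%, and was below it in 43, 0.952%. The ratios of 90% of measured genes lay between -0.32 and 0.31 on the log2 scale in that last comparison and between -0.57 and 0.46 in control blood.

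The split between higher and lower depended on scaling in some comparisons. With each cell weighted alike, 34.9% of the calls in WT after irradiation were higher, instead of 20.7%. With the 5 score genes taken out of the total, a setting added after the data were seen, 57.5% of the calls between genotypes in control blood were higher instead of 41.2%, and 45.2% after irradiation instead of 30.6%. With all groups given the same make-up of score tiers, also added later, those shares were 62.6% and 49.2%, and 32.6% of the calls after irradiation in WT were higher.

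Immediate-early genes, which cells transcribe within minutes of a stimulus, were highest in WT control neutrophils. Egr1, a zinc-finger transcription factor of this kind, was at 2147 CPM in WT control, 566 CPM in cKO control, 568 CPM in WT IR and 434 CPM in cKO IR. Only the WT control pool stood apart, and the log2 ratio was -1.92 (-1.97 to -1.87) for irradiation in WT and -0.38 (-0.46 to -0.31) for irradiation in cKO. Fosb, a partner in the AP-1 transcription factor, was at 683, 275, 319 and 259 CPM in the same order. Nr4a1, an orphan nuclear receptor, was at 309, 147, 159 and 91.9 CPM. Of the 21 measured members of the list 12 were called lower after irradiation in WT and none higher. The median log2 ratio was -0.60, against -0.01 over all measured genes, of which 3.57% were lower. Fos, Dusp1 and Btg2 lay at the limit and fell under it with TMM factors, which rescale each group by a trimmed mean of its ratios, and Dusp2 with 5 alternatives, stricter membership among them, a score of 10% or more and no UMI of the other rule genes. In cKO, 3 of 20 were lower (Ier3, Nr4a1 and Klf4), where 2.47% of all were, with a median of -0.22 against 0.06. Between genotypes in control blood 9 of 21 were lower in cKO and 1, Ier3, was higher at 451 CPM against 229 CPM. The median was -0.52 against -0.07 over all measured genes, of which 4.63% were lower and 3.24% higher. Of those 9, Fosl2 and Ier2 fell under the limit with 4 alternatives, TMM factors and stricter membership among them, and Dusp2 with stricter membership and with equal score tiers. Markers of other cells fell in WT after irradiation as well: 5 of 10 measured monocyte markers were called lower (Ccr2, Ms4a6c, Klf4, Cx3cr1 and Ace, median -0.51) and 3 of 4 dendritic cell markers (H2-Ab1, H2-Aa and Cd74, median -0.75), with summed levels of 669 and 523 CPM and of 183 and 114 CPM in WT control and WT IR. Their part in the result was not tested.

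Not every member moved alike. Jun was at 120, 129, 103 and 122 CPM and Klf2, a transcription factor that keeps T cells quiescent, at 1959, 1921, 1894 and 1731 CPM. Klf4, a transcription factor of myeloid cells, was called lower after irradiation in cKO, from 28.9 to 10.5 CPM, but its log2 ratio of -1.45 became 0.08 under a guard against doublets that left out cells with markers of other types and the deepest cells. The height of Egr1 in WT control was also found outside the members. Interferon-signature neutrophils of the same pools had 2313, 543, 683 and 450 CPM, other blood barcodes 1081, 563, 449 and 305 CPM, and near-empty droplets 1036 CPM in the control library and 507 CPM in the irradiated one. The part of stray RNA in this pattern was not tested.

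**Figure D3:**
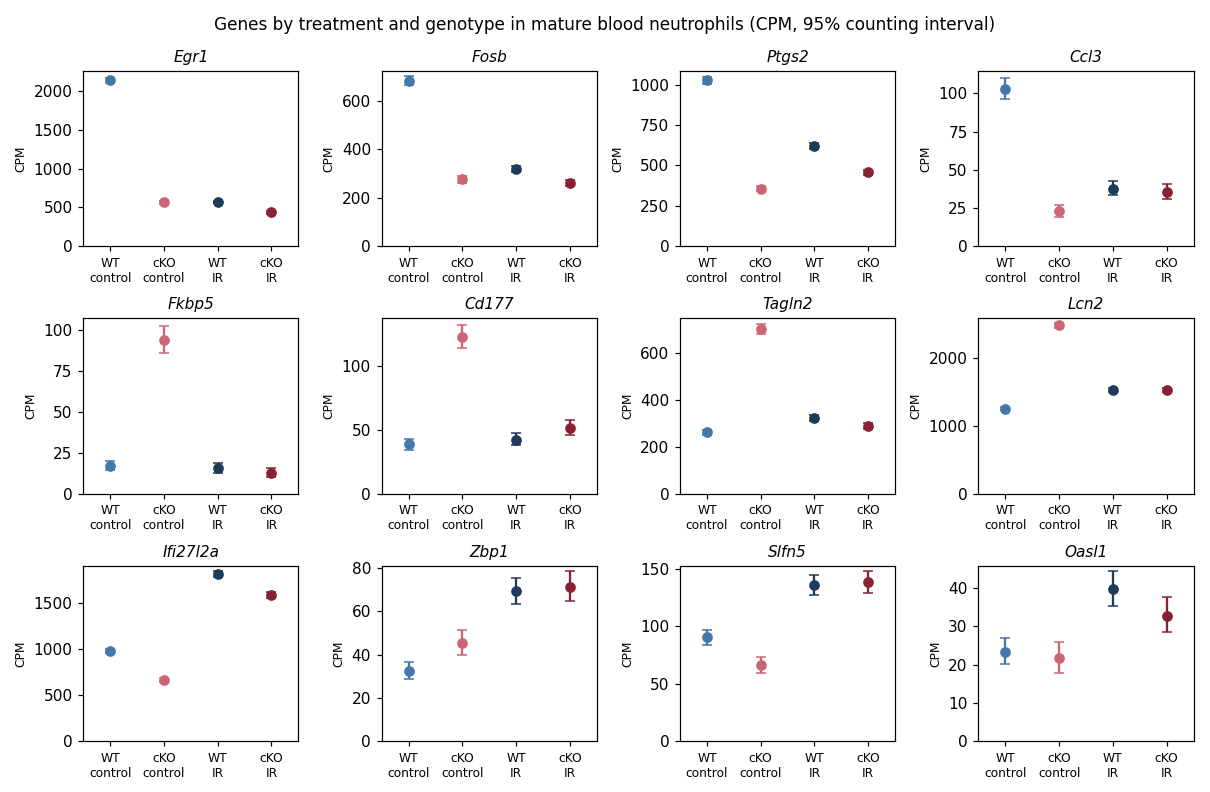
CPM of 12 genes in the 4 groups of mature blood neutrophils (points) with 95% counting intervals (bars); each axis starts at 0. In the top row WT control stands above the other groups, in the middle row cKO control does, and in the bottom row both IR groups stand above both controls.

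Inflammatory mediators followed. Cxcl2 (chr5:90903871-90905938, plus strand), the ligand of Cxcr2 that recruits further neutrophils, was at 4732 CPM in WT control, 2552 CPM in cKO control, 3041 CPM in WT IR and 1185 CPM in cKO IR. It was lower after irradiation in both genotypes and lower in cKO in both treatments; the log2 ratio of cKO to WT was -0.89 (-0.92 to -0.86) in controls and -1.36 (-1.40 to -1.32) after irradiation. A Cxcl2 UMI was found in 77.5%, 66.8%, 65.9% and 48.0% of members in that order, against 5.71% to 12.3% of lymphocytes; after thinning to 500 UMIs the shares were 28.0% to 58.6% and 0% to 3.51%. The interferon-signature neutrophils of the same pools showed the same order of treatment within each genotype, at 4298, 1647, 3033 and 1200 CPM. Osm, which encodes the cytokine oncostatin M, was at 608, 450, 325 and 258 CPM. Il1r2, a decoy receptor for interleukin-1, fell from 647 to 384 CPM in WT and from 824 to 259 CPM in cKO.

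Of 11 measured chemokine and interleukin-1 family genes, 7 were called lower after irradiation in WT (Cxcl2, Cxcl3, Ccl3, Ccl4, Ccl5, Il1r2 and Osm) with a median log2 ratio of -0.75 against -0.01 over all measured genes, of which 3.57% were lower. In cKO 5 of 10 were lower (Cxcl2, Ccl5, Il1r2, Il1rap and Osm) with a median of -0.48 against 0.06, where 2.47% of all were lower; Ccl3 was higher there but fell under the limit with stricter membership and with equal score tiers. In control blood 5 of 12 were lower in cKO and Il1rap, the co-receptor of interleukin-1, was higher at 295 CPM against 144 CPM. Of all measured genes 4.63% were lower there and 3.24% higher. After irradiation Cxcl2 and Ccl5 were lower and Ccl4 higher in cKO, of 10, where 0.952% of all were lower and 0.42% higher. Il1b itself, one of the most abundant transcripts of these cells, was at 9822, 7688, 8502 and 7619 CPM and passed 1.5-fold in no comparison. Ptgs2, the inducible cyclo-oxygenase, was at 1028 CPM in WT control, 355 CPM in cKO control, 620 CPM in WT IR and 457 CPM in cKO IR. Thus its genotype difference in controls, a log2 ratio of -1.53 (-1.61 to -1.46), was -0.44 (-0.51 to -0.37) after irradiation. That the differences themselves differ was not tested.

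Ccl5 needs its own account. It was at 78.6, 33.3, 29.7 and 5.67 CPM, but in WT control 85.3% of its UMIs came from 10 cells, and in WT IR 97.2%. Ccl5 is abundant in NK and T cells, and it was at 12590 CPM in the WT control lymphocytes. With the symmetric tag rule the log2 ratio of cKO to WT after irradiation changed from -2.36 to 1.44.

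Genes of the NF-kB pathway lay lower in cKO in both treatments by their median, with different members past the limit. Nfkbia, the inhibitor that NF-kB itself induces, was at 998 CPM in WT control, 935 CPM in cKO control, 1186 CPM in WT IR and 619 CPM in cKO IR, with a log2 ratio of cKO to WT after irradiation of -0.94 (-0.99 to -0.88). Tnfaip3, a ubiquitin-editing enzyme that limits the pathway, was at 83.7, 57.7, 98.6 and 48.4 CPM. Of 19 measured pathway genes Nfkbia, Tnfaip3 and Traf1, which fell under the limit with the guard against doublets, were lower in cKO after irradiation. None was higher, and 0.952% of all measured genes were lower. The median was -0.23 against 0.01 over all measured genes. In control blood the median was -0.27 against -0.07. Nfkbie and Nfkbid were lower there, of 21, where 4.63% of all measured genes were. Nfkbie fell under the limit when cells were thinned to 500 UMIs, Nfkbid with stricter membership, and both with equal score tiers.

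Irradiation went with higher interferon-stimulated genes even in cells chosen to lack the strongest ones. The rule capped only Ifit1, Ifit3, Ifit3b, Rsad2 and Cmpk2, and it thereby bounded their correlates, so the ratios below are within that bound. Ifi27l2a (chr12:103442167-103443680, minus strand), a small interferon-induced mitochondrial protein gene, was at 978 CPM in WT control, 663 CPM in cKO control, 1807 CPM in WT IR and 1584 CPM in cKO IR. Both irradiated pools exceeded both control pools, with log2 ratios of 0.89 (0.85 to 0.93) in WT and 1.26 (1.20 to 1.31) in cKO. Zbp1, a sensor of Z-form nucleic acids, was at 32.5, 45.5, 69.3 and 71.5 CPM. Rtp4, an interferon-induced chaperone gene, was at 159, 140, 291 and 252 CPM, and Isg15, a ubiquitin-like modifier, at 199, 161, 296 and 291 CPM. The near-empty droplets moved too, Ifi27l2a from 1422 to 2242 CPM and Zbp1 from 108 to 153 CPM, and the part of stray RNA was not tested.

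Of 34 measured interferon-response genes outside the rule 12 were higher after irradiation in WT, where 0.933% of all measured genes were, and none was lower, with a median log2 ratio of 0.36. Of the 12, Oas3, Gbp2 and Slfn8 fell under the limit with the guard against doublets. Oas3 did so also with 3 other alternatives and Slfn8 with each cell weighted alike. In cKO 8 of 32 were higher, where 2.47% of all were, and Ifitm6 was lower, with a median of 0.32. Slfn4 fell under the limit there in 2 alternatives, Ifitm6 in 3 and Oasl1 in 4. The genotypes differed little: 2 of 32 were higher in cKO in control blood (Ifitm6 and Gbp7), where 3.24% of all were. Ifitm6 fell under the limit there with equal score tiers. After irradiation none of 33 was called between genotypes, and the median was 0.01. Oasl1, Ifi27l2a, Slfn5, Slfn8, Zbp1 and Rtp4 were called higher in both genotypes, Oasl1 in cKO not with TMM factors. With stricter membership, which allowed no UMI of the capped genes, these calls held except for Oasl1 in cKO. Class I antigen presentation genes had a median log2 ratio of 0.34 after irradiation in both genotypes. H2-K1 was at 575, 488, 837 and 654 CPM and H2-D1 at 3054, 2715, 3769 and 3414 CPM, neither past 1.5-fold. H2-Q7, a non-classical class I gene, was at 27.3, 16.0, 56.3 and 26.8 CPM and was called in every comparison, although its log2 ratio between genotypes in control blood, -0.76, fell under the limit in 4 alternatives: the symmetric tag rule, the guard against doublets, thinned cells and equal score tiers. Cd274, which encodes the checkpoint ligand PD-L1, was at 29.4, 19.8, 49.1 and 36.2 CPM.

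The start-site windows of the interferon-response genes called higher in both genotypes were read from RefSeq (GRCm38.p6) for the interferon-stimulated response element core GAAANNGAAA, on both strands. Of these genes 3 had windows there, namely Oasl1, Slfn5 and Slfn8, and Ifi27l2a, Zbp1 and Rtp4 had none. Of the 3, Slfn5 and Slfn8 held the core in any of their windows and Oasl1 did not. The core was in 3.44% of all 32851 windows of 300 bases. That share counts windows and not genes, and a gene such as Slfn8 can have several windows. The windows of Slfn5 (chr11:82951852-82952151, plus strand) and Slfn8 (chr11:83020761-83021060, minus strand) are shown 5′ to 3′ on the strand of the gene, with the core in capitals, in Slfn8 on the opposite strand. A match is a description of these letters only.
Slfn5: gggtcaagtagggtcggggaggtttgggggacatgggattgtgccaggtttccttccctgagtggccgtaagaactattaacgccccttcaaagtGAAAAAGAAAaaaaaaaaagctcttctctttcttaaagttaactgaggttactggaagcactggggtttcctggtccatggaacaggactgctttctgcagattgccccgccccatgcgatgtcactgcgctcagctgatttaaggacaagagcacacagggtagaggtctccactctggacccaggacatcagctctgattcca
Slfn8: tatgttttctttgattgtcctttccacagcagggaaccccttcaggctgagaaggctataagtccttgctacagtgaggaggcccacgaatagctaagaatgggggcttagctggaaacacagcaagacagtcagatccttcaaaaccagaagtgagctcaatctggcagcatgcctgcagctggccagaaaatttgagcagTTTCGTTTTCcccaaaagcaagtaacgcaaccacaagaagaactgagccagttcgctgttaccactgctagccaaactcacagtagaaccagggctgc
Slfn5, a member of the Schlafen family of interferon-induced genes, was at 90.1, 66.0, 136 and 138 CPM in WT control, cKO control, WT IR and cKO IR. Its relative Slfn8 was at 32.6, 33.1, 49.8 and 54.5 CPM, and fell under the limit in WT with each cell weighted alike and with the guard against doublets.

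Control blood of cKO mice held a distinct profile of its own. Fkbp5 (chr17:28399094-28517527, minus strand), a co-chaperone of steroid receptors that glucocorticoids induce, was at 16.9 CPM in WT control, 94.2 CPM in cKO control, 15.5 CPM in WT IR and 12.7 CPM in cKO IR. It was high in this pool alone, with a log2 ratio to WT control of 2.47 (2.20 to 2.76). Fkbp5 was high in cKO control also among granule-rich cells (76.7 CPM against 14.7 CPM in WT control) and other blood barcodes (50.1 against 10.4 CPM). Tagln2, an actin-binding protein gene, was at 262, 705, 323 and 290 CPM, and Ahnak, a giant scaffold protein gene, at 66.1, 182, 41.8 and 44.02 CPM.

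Some genes of late granules and maturation were also higher in that pool. Cd177, a surface protein of neutrophil granules, was at 38.5, 123, 42.3 and 51.5 CPM. Lcn2, the iron-binding protein lipocalin-2 of secondary granules, was at 1251, 2480, 1522 and 1524 CPM, and Wfdc21 at 1290, 3083, 1302 and 1418 CPM. Of the 20 identity genes outside the rule, Ly6g, Mmp8, Lcn2, Cd177 and Wfdc21 were higher in cKO control than in WT control. G0s2, Trem1 and Clec4e were lower. Of all measured genes 3.24% were higher and 4.63% lower, and the median log2 ratio was 0.10 for the list against -0.07. Mmp8 and Clec4e fell under the limit in 4 alternatives each, G0s2 in 2 and Ly6g in 1. After irradiation none of the 20 was called between the genotypes. Retnlg, a score gene, was at 8294, 14894, 11284 and 10960 CPM and is given as a description, as is the rule gene Ngp, whose members carry at most 2 UMIs.

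Members were divided by the share of their UMIs from the 5 score genes into tiers of 5 to 10%, 10 to 20%, 20 to 30% and 30% or more; since the score is part of the rule, the tiers are a description. From the lowest to the highest tier Lcn2 went from 650 to 4522 UMIs per 1000000 UMIs outside the score genes in WT control and from 934 to 6839 in cKO control, and Egr1 went from 2721 to 1296 and from 996 to 243. Lcn2, Mmp8 and Cd177 were therefore higher in high-score cells of every group. Egr1 was higher in WT control than in the other groups in every tier, and Cd177 was highest in cKO control in every tier. In cKO control 18.7% of members were in the top tier, against 5.15% in WT control, 7.43% in WT IR and 11.1% in cKO IR. Giving all groups the same make-up of tiers kept Cd177 and Fkbp5 past the limit, while Mmp8 fell from a log2 ratio of 0.69 to 0.20 and Ly6g from 0.88 to 0.45. The log2 ratio of Lcn2, 0.99, was 0.586 in the alternative that lowered it most. Equal tiers do not make the groups alike near the granule limit. No UMI of Ngp, Camp or Ltf was seen in 86.7% of cKO control members. In WT control, WT IR and cKO IR that share was 95.6%, 97.0% and 96.0%. The make-up of the pool and the level per cell therefore could not be told apart for any of these genes. Cxcr4, the marrow-retention receptor, went from 695 to 427 across the tiers in WT control.

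**Figure D4:**
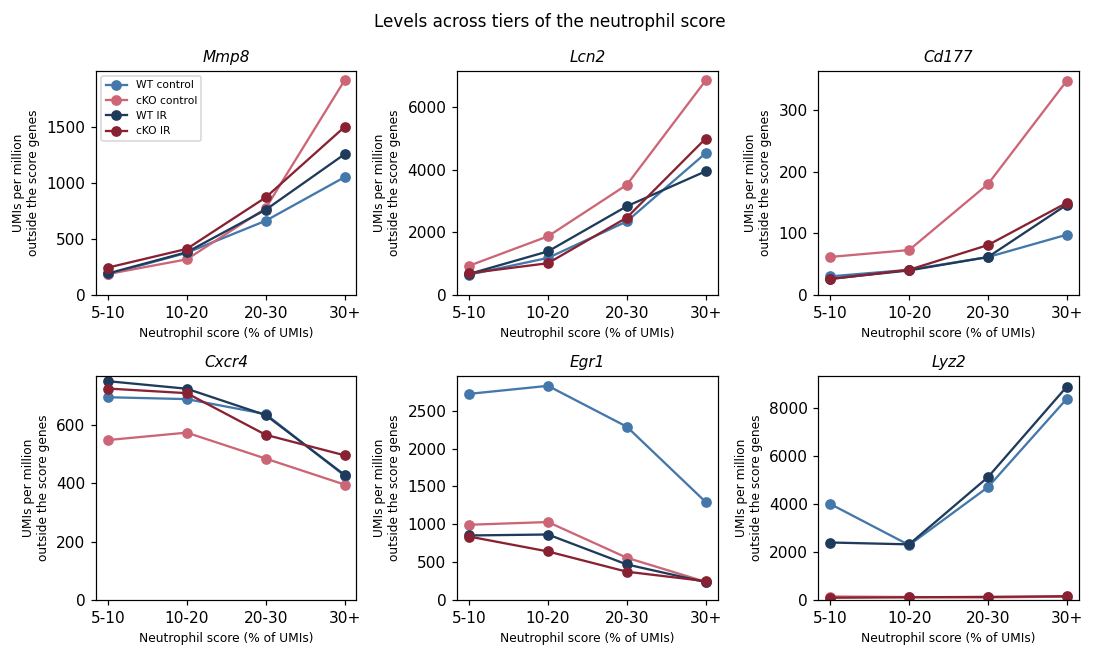
Level of 6 genes, in UMIs per 1000000 UMIs outside the score genes, across 4 tiers of the neutrophil score (% of UMIs) in the 4 groups. Mmp8, Lcn2 and Cd177 rise towards the top tier, Egr1 and Cxcr4 end lower than they began, and Lyz2 is near 0 throughout in both cKO groups.

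Some genes kept a genotype difference in both treatments. Of the 149 genes higher in cKO in control blood 7 were higher after irradiation as well, 4.70% of the first list and 36.8% of the second, namely Igfbp6, Mdm1, Mrgpra2a, Soat2, Tmem268, Wfdc17 and Ythdf2. The share higher in cKO over all measured genes was 0.42% after irradiation and 3.24% in control blood. Wfdc17 (chr11:83703991-83706268, plus strand), a secreted whey-acidic-protein gene of myeloid cells, was at 2194, 3453, 1904 and 3498 CPM. Igfbp6, an insulin-like growth factor binding protein gene, was at 38.8, 74.9, 34.6 and 63.0 CPM. Both cKO pools exceeded both WT pools for these 2 genes.

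Of the 213 genes lower in cKO in control blood 23 were lower after irradiation, 10.8% and 53.5% of the lists. The share lower in cKO over all measured genes was 0.952% after irradiation and 4.63% in control blood. Cdkn1a (chr17:29090976-29100727, plus strand), the cell-cycle inhibitor p21 and a p53 target, was at 71.1, 25.1, 51.6 and 16.0 CPM. Thbs1 (chr2:118111876-118127133, plus strand), the adhesive glycoprotein thrombospondin-1, was at 171, 55.1, 97.7 and 42.9 CPM. Tgm2, a transglutaminase, was at 82.4, 38.7, 79.8 and 40.2 CPM, and Rnf125, a ubiquitin ligase gene, at 28.2, 17.3, 29.0 and 8.34 CPM. For each of these 4 genes both cKO pools lay below both WT pools. Per1, a clock gene, was at 261, 162, 150 and 87.9 CPM.

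Ccng1, a p53 target, was at 17.5 and 13.8 CPM in the WT and cKO controls and at 29.9 and 27.3 CPM after irradiation, with log2 ratios of 0.76 (0.45 to 1.08) and 0.98 (0.58 to 1.40). Mdm2, another target, was at 62.5, 56.6, 62.3 and 66.0 CPM. Of 10 measured targets Ccng1 was higher and Btg2 lower after irradiation in WT. The median log2 ratio was 0.03 against -0.01 over all measured genes, of which 0.933% were higher and 3.57% lower. In cKO Ccng1 and Bbc3, a pro-apoptotic gene, were higher and Cdkn1a was lower, where 2.47% of all were called in each direction. The median was 0.30 against 0.06. Bbc3 and Cdkn1a fell under the limit with the guard against doublets, and Bbc3 also with equal score tiers.

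Apoe and Steap4 were called higher after irradiation in cKO and not in WT. Apoe, the lipid carrier apolipoprotein E, was at 252, 135, 212 and 318 CPM, a log2 ratio for irradiation of 1.23 (1.11 to 1.36) in cKO and -0.25 (-0.34 to -0.15) in WT. Steap4, a metalloreductase, was at 72.5, 64.6, 81.4 and 133 CPM. The difference between the genotypes' responses was not tested. Receptors, adhesion molecules and transcription factors were called in some members. Of all measured genes 0.933% were higher and 3.57% lower after irradiation in WT, and 2.47% each in cKO. In control blood 3.24% were higher and 4.63% lower in cKO, and after irradiation 0.42% and 0.952%. The few calls in each list below are given beside these shares and are not read as a result about the list. C5ar1, the receptor for complement C5a, was at 477, 447, 434 and 433 CPM, Itgb2, the integrin beta chain of leukocytes, at 514, 485, 524 and 514 CPM, and Spi1, the myeloid master regulator PU.1, at 1036, 1130, 1138 and 1118 CPM. Of 8 measured chemoattractant receptors only Fpr2, a formyl peptide receptor, was called, at 276 CPM in cKO control against 179 CPM in WT control, and only in that comparison; with stricter membership it fell under the limit. Of 18 measured Fc, complement and pattern receptors Itgax was higher and Fcgr2b lower after irradiation in cKO, and Fcgr2b was higher and Tlr2 lower in cKO control than in WT control. Fcgr2b, the inhibitory Fc receptor, was at 15.8, 31.1, 14.5 and 16.5 CPM and Tlr2, a receptor for bacterial lipoproteins, at 136, 76.9, 114 and 99.9 CPM. None of 19 was called after irradiation in WT or between genotypes after irradiation. Of 12 measured adhesion genes Itgax was called higher and Cd177 lower after irradiation in cKO, and Cd177 higher in cKO control than in WT control. Of 16 measured myeloid transcription factors Klf4, Nfil3 and Junb were lower after irradiation in WT, Cebpa and Klf4 in cKO, and Nfil3 and Bhlhe40 in cKO control; Cebpa and Klf4 in cKO, Itgax and Bhlhe40 each fell under the limit in at least 1 alternative. Cebpb, a transcription factor of emergency granulopoiesis, was at 3547, 2504, 2460 and 1790 CPM and was not called. Of 16 measured genes associated with suppressive neutrophils, Cd274 was higher and Ptgs2, Clec4e, Cd14 and Junb were lower after irradiation in WT. In cKO Cd274 was higher and Cd14 lower. Wfdc17 was higher in cKO than in WT in both treatments, and Ptgs2, Clec4e and Vegfa were lower in cKO control than in WT control. Clec4e fell under the limit in both its comparisons with TMM factors. Cd14 was at 544, 536, 270 and 184 CPM, and Arg2 was at 281, 260, 298 and 285 CPM. Of the other lists, glycolysis and hypoxia had none of 20 measured genes called in any comparison, the receptors for colony-stimulating factors and cytokines 2 of 18 (Csf2rb2 and Il4ra, higher in cKO control), and the NADPH oxidase and antioxidant list only Prdx1. Prdx1 was called lower after irradiation in WT and lower in cKO control than in WT control. Both calls fell under the limit with stricter membership and with the guard against doublets.

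**Figure D5:**
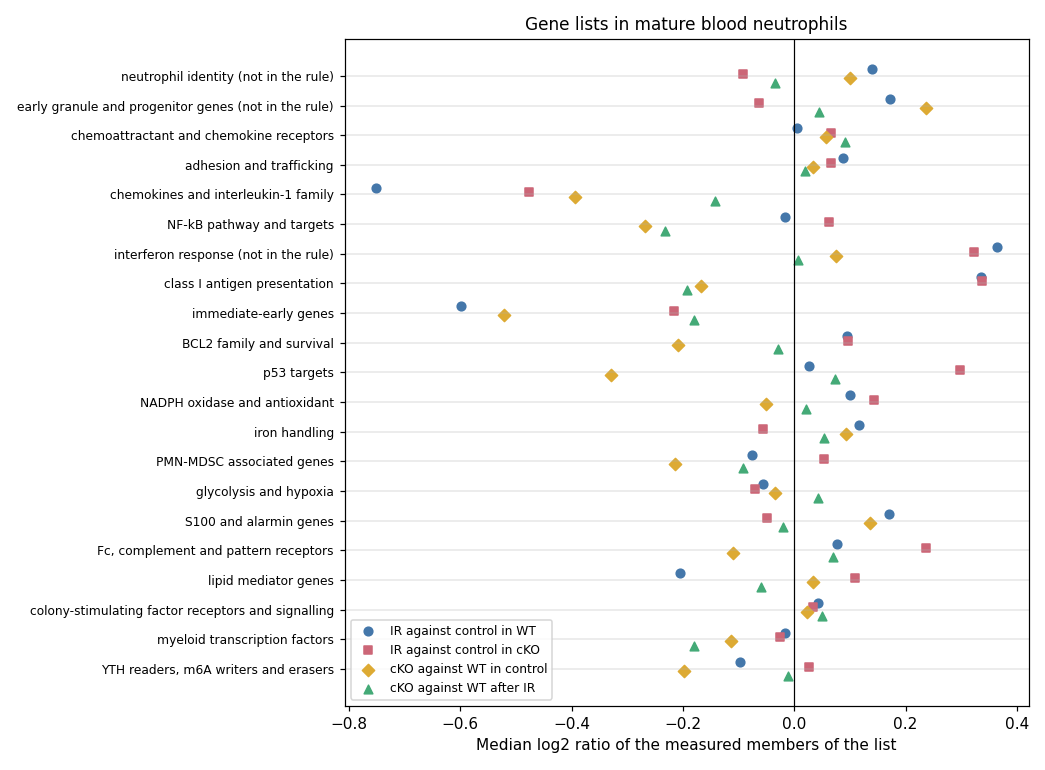
Median log2 ratio of the measured members of each gene list in the 4 comparisons (symbols); the line marks 0. The interferon and class I lists lie right of 0 in both irradiation comparisons, and the chemokine and immediate-early lists lie left of 0 in all 4 comparisons.

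Haemoglobin genes fell after irradiation, and few cells carried them. Hbb-bs was at 585 CPM in WT control, 557 CPM in cKO control, 12.0 CPM in WT IR and 67.2 CPM in cKO IR. Of all haemoglobin UMIs in WT control 94.7% lay in 10 cells, and 1 cell had 4484 of 8582. The near-empty droplets held Hbb-bs at 2173 CPM in the control library and 809 CPM in the irradiated one. Gzma and Nkg7, genes of NK and T cells, were likewise lower after irradiation: 89.9% of the UMIs of the NK markers in WT control lay in 10 cells. Mt1, a metallothionein, was at 43.4, 18.4, 8.71 and 3.67 CPM. Ddx3y on the Y chromosome was at 96.1 CPM in WT control and between 49.8 and 53.4 CPM in the other groups, and Xist had at most 0.249 CPM.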

How the data were processed

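Cells sorted as CD45+CD11b+Ly6Chi were profiled by 3′ single-cell RNA sequencing with hashtag antibodies. The authors deposited raw UMI counts per barcode and feature; the submitters' processing notes name Cell Ranger 6.0.1, Seurat 4.0.6 and mm10, while the file headers name Cell Ranger 4. Barcodes with at least 500 gene UMIs, 200 genes, 20 hashtag UMIs and at most 25% mitochondrial UMIs were kept. A cell was WT if tag B0301 was at least tag B0302 and cKO if B0302 was at least 4 times B0301. No doublet caller was run.

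Counts of the members were summed per group and scaled to 1000000 UMIs per group (CPM) with exact Poisson intervals. Log2 ratios had 1 UMI added to each sum and exact conditional binomial intervals; shares had Clopper-Pearson intervals, all at 95%. With 1 pool per group no p-value was computed. For stray RNA, barcodes with 10 to 100 UMIs and lymphocytes (at least 5 UMIs of B, T and NK markers, score under 1%, no UMI of Csf1r, Ccr2 or Flt3) were used. The ratio step was tested on simulated data. Named were, per comparison, the 10 highest and 10 lowest measured genes without mitochondrial genes, unnamed gene models and rule genes, list members past 1.5-fold or otherwise the most abundant, the markers and the label and sex-linked genes; other genes named were chosen after their values were seen. The members, lists and tests were chosen with earlier results of these data known. Coordinates are from GENCODE vM21 on mm10, another release than the authors used. TMM factors came from edgeR. The number of other columns of per-sample values not used was 0. Tumor libraries were used only in the closing section.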

Additional observations from a re-analysis of the deposited data

Results flagged for a closer look

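A few genes were past 1.5-fold in opposite directions under the same contrast; with 1 pool per group the difference was not tested. After irradiation Ccl3 had a log2 ratio of -1.45 in WT and 0.63 in cKO (0.53 with stricter membership and 0.50 with equal score tiers, both under the limit), Ctsl, a lysosomal protease gene, of -0.65 and 0.77, and Rfx2, a transcription factor gene, of 0.72 and -0.69. Between genotypes Ccl4 had a log2 ratio of -1.34 in control blood and 0.63 after irradiation.

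The tumor libraries, which no comparison here used, held barcodes that met the same limits. They made up 1.90% (64 of 3367) of passing WT barcodes and 1.01% (40 of 3976) of passing cKO barcodes in irradiated tumors, against 0.259% (7 of 2703) and 0.569% (13 of 2284) in control tumors.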

How the results depend on the processing

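Counts of called genes are given for irradiation in WT, irradiation in cKO, genotype in control blood and genotype after irradiation, in that order. A 2-fold limit gave 39, 43, 70 and 12, a minimum of 20 UMIs 1276, 1197, 1510 and 777, and cells thinned to 500 UMIs, where fewer genes were measured, 68, 84, 158 and 28. Stricter membership gave 126 and 136 for the first 2, and the guard against doublets, which mostly removed cells with monocyte markers, 117 for the first. The remaining counts stayed within 1.5 times. As shares of passing barcodes in WT control, cKO control, WT IR and cKO IR, members were 34.7%, 30.3%, 30.4% and 32.6% with stricter membership, 38.5%, 34.7%, 34.8% and 36.4% with the guard against doublets and 61.1%, 59.4%, 61.8% and 64.7% when thinned; the mitochondrial limit and the symmetric tag rule moved none outside its interval. Of 195 named log2 ratios 137 stayed past 1.5-fold in every alternative. Those that changed sign were Ccl5 between genotypes after irradiation (1.44 with the symmetric tag rule, 1.81 with stricter membership, 2.01 with the guard against doublets) and in control (0.0505, guard), Hba-a1 between genotypes after irradiation (-1.17, guard), Klf4 after irradiation in cKO (0.0843, guard), Prdx1 between genotypes in control (0.0231, guard), S100a10 after irradiation in WT (0.18, thinned), and S100a4 after irradiation in WT (0.0411, guard) and between genotypes in control (0.11 with the symmetric tag rule, 0.26 with the guard). The cause was not tested. No paired analysis was possible because each group is 1 pool. Depth limits genes under 200 UMIs, and the 1 pool per group limits every comparison.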
